A study of Mus musculus with 6 samples.

Results

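Aldose reductase, its relatives among the aldo-keto reductases, the carbonyl reductases and sorbitol dehydrogenase were followed in Lewis lung carcinoma (LLC) cells given a microRNA mimic. The 8 genes Akr1b1, Akr1b8, Akr1a1, Akr7a5, Cbr1, Cbr2, Cbr3 and Sord were picked by symbol, and each symbol matched 1 of the 24794 genes in the count table. They were chosen from earlier results on these same libraries, in which Akr1b1 was among the risen genes and Cbr2 among the fallen. Their differences between the groups are therefore given as a description. Where a member's side of a test threshold is stated, it was part of that choice and supports nothing. All 8 were among the 13779 genes that passed the filter on low counts. LLC is a transplantable tumour line that arose as a lung carcinoma in a C57BL/6 mouse. Mimics of miR-291-3 were put into the cells of 3 libraries, and a control mimic into those of the other 3, the control libraries. The series' design text names the microRNA as miR-291a-3p and asks for the effect of overexpressing it. The sources used here give no genetic change of the cells, no mimic dose and no time after transfection. Both groups come from the 1 line, and whether the libraries within a group came from separate cultures is not stated, so all spreads and p-values below describe these libraries only.

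Apart from Sord, these genes encode enzymes that reduce aldehydes and ketones to alcohols with NADPH. Aldose reductase, the product of Akr1b1, turns glucose into sorbitol, and sorbitol dehydrogenase, the product of Sord, oxidises sorbitol to fructose with NAD, the 2 steps of the polyol pathway. The other reductases act mainly on reactive aldehydes from lipid oxidation, on quinones and on carbonyl drugs such as anthracyclines. Several of them are known targets of the oxidative stress factor NRF2, and Akr1b1 is a known target of the tonicity factor NFAT5.

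The microRNA is shown because its seed, bases 2 to 8 and in capitals, defines the words sought in the transcripts of these genes. The sequence is RefSeq's mature form, from chr7:3218968-3218989 on the plus strand of GRCm38.p6. The transfected mimic's own sequence is not given in the sources used here.
miR-291a-3p: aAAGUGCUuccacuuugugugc

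None of the 8 main coding transcripts in GENCODE M21 (GRCm38) held a match to that seed at any position, in coding sequence or outside it. The first word sought was AGCACTT, which pairs with the whole seed. The other 7-base word was GCACTTA, and the 6 bases that both contain, GCACTT, were sought as well, on the transcript strand only. The main transcript was the one with the longest coding sequence, and the 8 were between 1110 bases (Cbr2) and 2352 bases (Sord) long. Of 11614 tested protein-coding genes, 31.1% held one of the 7-base words in their main transcript, and 50.7% held the 6-base word. Those shares are over main transcripts of any length and were not matched to the lengths of the 8. The absence says only that these letters are not in these transcripts.

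Among the other annotated transcripts of the 8 genes, matches were found in those of Akr1b1 alone. They are shown because Akr1b1 was the member with the largest increase. One lies in the coding part of a short alternative transcript of 583 bases, at chr6:34316593-34316599. The others lie in transcripts with retained introns, at chr6:34308275-34308281 and chr6:34306498-34306504, where AGCACTT is followed by an A. None lies in an exon of the main transcript, and all are on the minus strand of GRCm38. Each line gives 30 bases with the 7-base match in capitals.
Akr1b1, short coding transcript: ggtggacctggGCACTTAgacacagtgaag
Akr1b1, retained intron, upstream: cctttaatcccAGCACTTgggaatcagagg
Akr1b1, retained intron, downstream: ccacgtcaccaAGCACTTagagtaacaggc

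The group as a whole split evenly. Past the adjusted threshold of 0.05 (edgeR quasi-likelihood test, Benjamini-Hochberg over all genes tested), 3 of the 8 genes were higher in the mimic libraries, 3 were lower and 2 were on neither side. Over all tested genes 49.1% passed, 24.3% higher and 24.8% lower, and since the members were chosen with this contrast in view nothing is read from their count. Over the alternative settings 2 or 3 were higher and 3 or 4 lower, as the places of Sord and Akr7a5 changed. Levels are given as CPM, read counts scaled to a common library size with TMM factors. The groups did not overlap in CPM for 6 of the 8, 3 higher and 3 lower with the mimic, against 54.9% of all tested genes, 27.0% higher and 27.9% lower. The median log2 change was -0.08 over the members and -0.01 over all tested genes. Akr1b1, Akr1b8 and Sord were on the higher side, Akr1a1, Cbr2 and Cbr3 on the lower, and Akr7a5 and Cbr1 overlapped.

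**Figure D1:**
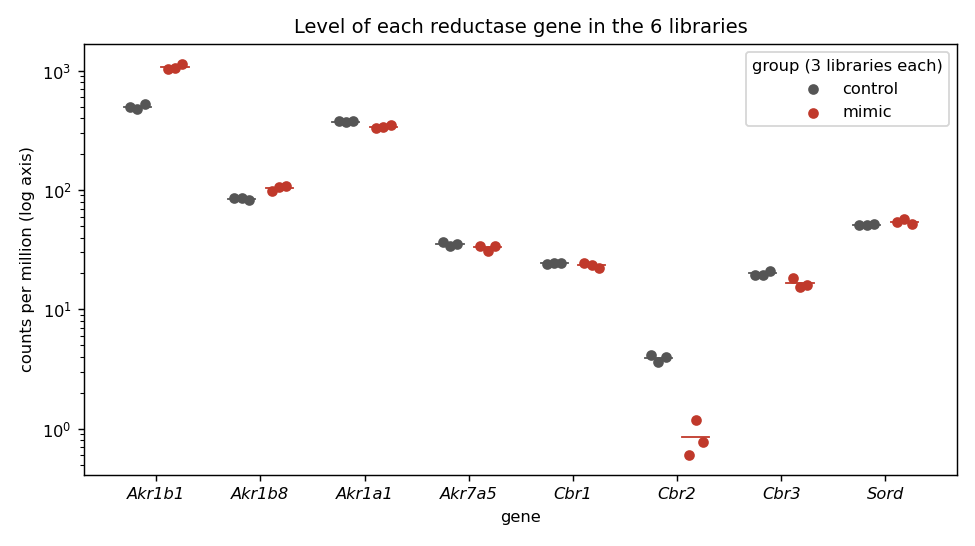
CPM of each of the 8 genes on a log axis, with 1 point per library (3 control, 3 mimic) and a short line at each group's mean. The mimic points of Akr1b1 lie between 1037 and 1146 CPM, above all control points, and those of Cbr2 between 0.601 and 1.19 CPM, below all control points.

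Akr1b1 (ENSMUSG00000001642.19, chromosome 6), which encodes aldose reductase, was the most abundant of the 8 in counts. The control libraries had 491, 476 and 525 CPM and the mimic libraries 1037, 1048 and 1146. Every mimic library was thus far above every control library. The fitted log2 change was 1.11 ± 0.03 (SE), a 2.16-fold level. By size of increase it stood at place 37 of the 13779 tested genes, while its mean level was above that of 98.8% of them. Its log2 change was between 1.06 and 1.15 over the 14 alternative settings.

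Akr1b8, an aldo-keto reductase that reduces lipid aldehydes, lies next to Akr1b1 on chromosome 6. It had 85.9, 85.1 and 83.3 CPM in the control libraries and 98.1, 106 and 108 CPM in the mimic libraries. The mimic libraries were again the higher, by a log2 change of 0.30 ± 0.03 (SE), or 1.23-fold. Within a library the ratio of Akr1b1 to Akr1b8 counts does not depend on how libraries are scaled. That ratio was 5.72, 5.59 and 6.30 in the control libraries and 10.6, 9.86 and 10.7 in the mimic libraries. The groups of ratios did not overlap, and aldose reductase counts grew 1.76-fold relative to those of its neighbour.

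The same stretch of chromosome 6 holds 2 further reductases of the family. In GENCODE M21 Akr1b1 spans chr6:34302434-34317478 on the minus strand and Akr1b8 chr6:34354119-34368463 on the plus strand, followed by Akr1b10 and Akr1b7. Akr1b10 had 14.0 ± 1.25 CPM in control and 14.2 ± 0.343 CPM in mimic libraries (SD, n = 3 each), and its log2 change of 0.02 ± 0.07 (SE) did not pass (adjusted p = 0.851, edgeR). Akr1b7 had at most 5 counts in any library and was not tested. Whether Akr1b10 differed from Akr1b1 in its change was not tested.

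Akr1a1, which encodes aldehyde reductase, an enzyme that also takes part in ascorbate synthesis in mice, was slightly lower with the mimic. It had 378, 369 and 377 CPM in the control libraries and 328, 340 and 352 CPM in the mimic libraries. The groups did not overlap, and the log2 change was -0.14 ± 0.02 (SE). In counts Akr1b1 exceeded Akr1a1 by 1.33 ± 0.0563 times in the control and 3.17 ± 0.0878 times in the mimic libraries (SD, n = 3 each).

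Akr7a5, the aflatoxin aldehyde reductase, overlapped between the groups. Its control libraries had 36.7, 33.7 and 35.3 CPM and its mimic libraries 34.2, 31.0 and 34.0 CPM, with a log2 change of -0.09 ± 0.05 (SE). Mimic library 2 alone was below every control library. It counted as lower in 4 of the 14 alternative settings, among them total counts only and the fit without control replicate 2 (log2 change -0.12).

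Cbr2 (ENSMUSG00000025150.11, chromosome 11), a carbonyl reductase known as a mitochondrial enzyme abundant in mouse lung, had the lowest level and the largest relative difference of the 8. Its read counts were 125, 104 and 135 in the control libraries and 15, 33 and 22 in the mimic libraries. In CPM these were 4.15, 3.61 and 4.01 against 0.601, 1.19 and 0.773. The highest mimic library, with 33 counts, was far below the lowest control library, with 104. The fitted log2 change was -2.18 ± 0.19 (SE), so that the control level was 4.54-fold the mimic level, place 8 from the bottom among all tested genes. In bulk RNA fewer cells that express a gene and less RNA per cell cannot be told apart.

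Cbr2 is also known from lung epithelium and tissue macrophages, so markers of these cells were read beside it. Of 8 markers of club and alveolar cells 1, Sftpb, had a row in the count table used, at no more than 0.0347 CPM in any library, and the other 7 were not analysed here. Of 10 leukocyte and macrophage markers 4 were tested, and Lyz2 and Cd14 fell with the mimic. The summed level of that list was 17.5 to 19.8 CPM in the control and 10.8 to 11.9 CPM in the mimic libraries. Most of that sum was Cd14 and Lyz2, at 9.62 and 5.52 CPM in control and 6.31 and 2.78 CPM in mimic libraries. The untested markers Ptprc, Adgre1, Mrc1, Fcgr1 and Folr2 were at or near 0, with at most 0.243 CPM in any library. What part these markers' source has in the Cbr2 difference was not tested. As for the labelled cell type, the keratin gene Krt8 was high, at 493 ± 7.41 CPM in control libraries (SD, n = 3). The keratin gene Krt18 was low, at 1.97 ± 0.365 CPM in control and 3.65 ± 0.659 CPM in mimic libraries (SD, n = 3 each). Epcam and Cdh1 were at most 0.149 CPM.

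Cbr1 and Cbr3 are near neighbours on chromosome 16 and encode cytosolic carbonyl reductases, of which the first has the broader range of substrates. Cbr1 had 24, 24.4 and 24.7 CPM in the control libraries and 24.5, 23.3 and 22.4 CPM in the mimic libraries. The groups overlapped, and the log2 change of -0.06 ± 0.05 (SE) ranged from -0.12 to -0.02 over the alternative settings. Cbr3 had 19.5, 19.5 and 21.1 CPM in the control libraries and 18.2, 15.4 and 16 CPM in the mimic libraries. Every mimic library was lower here, with a log2 change of -0.28 ± 0.06 (SE).

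The ratio of Cbr1 to Cbr3 counts was 1.23, 1.25 and 1.17 in the control libraries and 1.35, 1.52 and 1.40 in the mimic libraries, without overlap. Because the members were chosen with this contrast in view, and Cbr3 was lower while Cbr1 overlapped, these ratios are a description only. The 3 carbonyl reductases together came to 48.3 ± 1.28 CPM in control and 40.8 ± 2.21 CPM in mimic libraries (SD, n = 3 each). Cbr2 carried a small part of that sum, so most of the carbonyl reductase reads in both groups were those of Cbr1 and Cbr3.

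Sord, the second enzyme of the polyol pathway, did not follow Akr1b1 in size. It had 50.9, 50.7 and 51.6 CPM in the control libraries and 53.7, 57.4 and 51.9 CPM in the mimic libraries. The lowest mimic library was only just above the highest control library, and the log2 change was 0.09 ± 0.04 (SE). It still counted as higher in 4 of the 14 alternative settings and not in the other 10, total counts only included (log2 change 0.03). Nor did it without control replicate 1, 2 or 3 or without mimic replicate 2, where the log2 change was 0.05 in the last case. Relative to Sord, Akr1b1 counts were 9.66, 9.39 and 10.2 times as high in the control libraries and 19.3, 18.2 and 22.1 times as high in the mimic libraries. The first enzyme of the pathway thus gained on the second by 2.04-fold in mRNA.

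**Figure D2:**
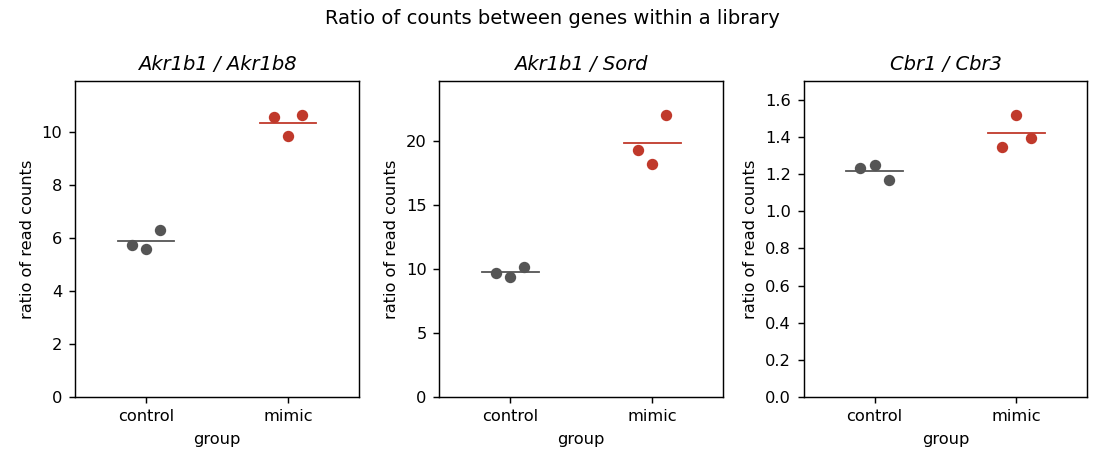
Ratio of read counts between 2 genes within each library, with 1 point per library and a line at the mean of each group of 3. The Akr1b1 to Akr1b8 ratio goes from 5.87 to 10.4 on average, Akr1b1 to Sord from 9.74 to 19.9, and Cbr1 to Cbr3 from 1.22 to 1.42, and no group overlaps the other.

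Summed over the 8 genes, the mimic libraries held 1649 ± 71.7 CPM and the control libraries 1091 ± 29.4 CPM (SD, n = 3 each). Without Akr1b1 the sum was 572 ± 13.6 CPM in the mimic and 594 ± 6.84 CPM in the control libraries. Akr1b1 made up 45.6% ± 1.07 of the members' counts in the control and 65.3% ± 0.848 in the mimic libraries, while Akr1a1 went from 34.3% ± 0.637 to 20.6% ± 0.313. The increase of the sum was thus carried by the 1 gene.

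**Figure D3:**
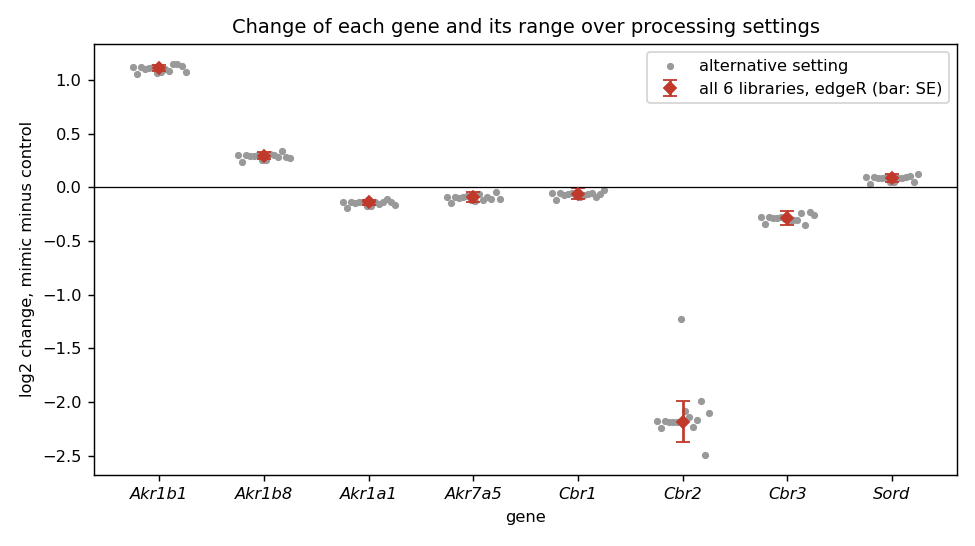
Log2 change of each gene, mimic minus control, as a red diamond with its SE from all 6 libraries, and as grey points under 14 alternative settings. No grey point lies on the other side of 0 from its diamond, and the point of Cbr2 nearest to 0, at -1.22, is limma on log2(FPKM + 1).

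Levels can be compared between genes only per length, and for Akr1b1 that comparison depended on which length was used. In the deposited FPKM values Akr1a1 led the control libraries with 121 ± 1.09 FPKM, ahead of Akr1b1 with 52.6 ± 2.42 and Akr1b8 with 50.2 ± 0.911 (SD, n = 3 each). Akr1b1 and Akr1b8 overlapped on this scale in the control libraries. Sord followed with 19.3 FPKM, Akr7a5 with 17.4, Cbr3 with 14.2, Cbr1 with 8.46 and Cbr2 with 2.62. In the mimic libraries Akr1b1 had 111 ± 5.32 and Akr1a1 107 ± 3.38 FPKM, ranges that overlapped.

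The gene length behind a deposited FPKM can be worked out from the count, the FPKM and the library total. For each of the 8 genes that length was 1.14 times the summed length of all exons of all GENCODE M21 transcripts, so the FPKM values followed the merged exons up to 1 constant factor. For Akr1b1 the merged exons came to 8384 bases against 1387 bases of the main coding transcript, because 4 of its 6 annotated transcripts keep introns. That is a ratio of 6.04, against 1.10 for Akr1b8, 1.94 for Akr1a1 and 2.06 for Cbr1, while for Sord the lengths were equal.

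Per kilobase of the main coding transcript the order changed. Akr1b1 then led in both groups, with 359 ± 17.8 CPM per kilobase in control and 776 ± 43.3 in mimic libraries (SD, n = 3 each), ahead of Akr1a1 with 264 ± 3.42 and 239 ± 8.29. Akr1b8 had 62.4 ± 0.985 and 76.6 ± 3.8, so that in control libraries it no longer overlapped Akr1b1. Cbr1 and Cbr3 also changed places, with 19.7 ± 0.29 against 17.1 ± 0.787 CPM per kilobase in the control libraries, as did Akr7a5 and Sord, with 27.3 ± 1.16 against 21.7 ± 0.191. How many of the Akr1b1 reads lie in retained introns cannot be read from counts per gene, and the length was chosen after the values were seen. Differences between the groups are not touched by the choice of length.

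**Figure D4:**
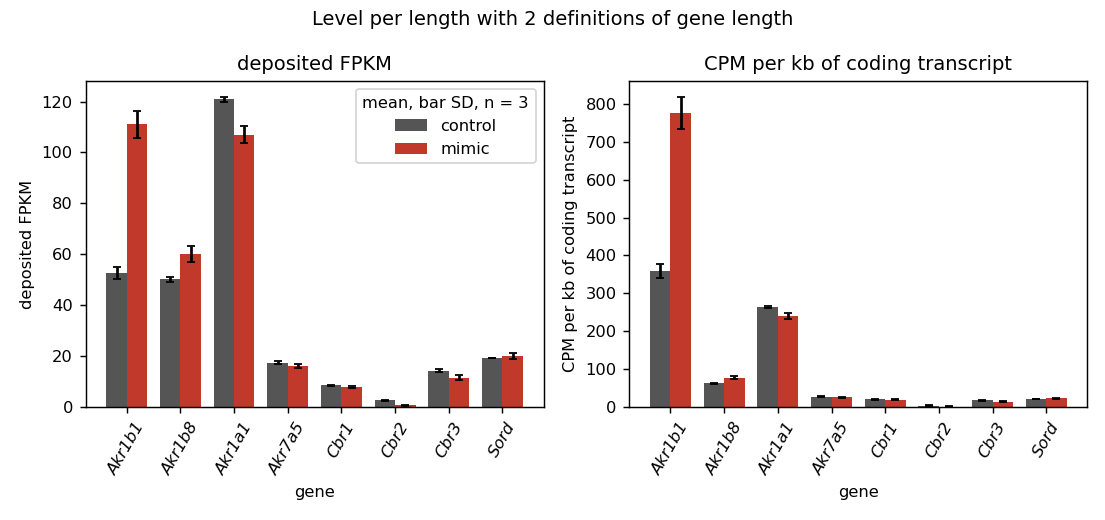
Mean level per length of each gene in control and mimic libraries (bars from 0, error bars SD, n = 3), on the left as deposited FPKM and on the right as CPM per kilobase of the main coding transcript. Akr1b1 is level with Akr1b8 in control libraries on the left (52.6 and 50.2) and well above it on the right (359 and 62.4).

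Near-identical copies can split the reads of a gene, so shared stretches of at least 50 bases were sought in all GENCODE M21 transcripts. The Akr1b1 transcript shares such stretches with 3 processed pseudogenes, Gm6644, Gm6736 and Gm12138, over 68.3%, 64.8% and 60.6% of its length. These pseudogenes had between 4 and 32 counts in any library, against 13734 to 32621 for Akr1b1. A smaller part of it, 4.83%, is shared with Gm43855, which was not analysed here. The handling of reads that match several places is not given in the sources used here, so the Akr1b1 level carries that uncertainty. Sord shares 41.0% of its transcript with Gm6652, Cbr1 23.7% with Gm5678 and Cbr2 23.2% with Gm11771, each at most 4 counts.

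Between the expressed reductases themselves little sequence is shared at that length. The coding sequences of Akr1b1 and Akr1b8 are 71.6% identical in a global alignment, those of Akr1b8 and Akr1b10 84.7% and those of Cbr1 and Cbr3 77.4%, while Cbr2 is 47.2% identical to Cbr1. The longest identical stretch of Akr1b1 and Akr1b8 is 24 bases. Akr1b8 and Akr1b10, and likewise Cbr1 and Cbr3, share 1 stretch of at least 50 bases in coding sequence, and these are printed because reads that fall wholly inside them cannot be assigned to 1 gene. They lie at bases 587 to 666 of the Akr1b8 transcript and 275 to 324 of the Cbr1 transcript. Akr1b8 further shares 60 bases with Gm5649 and 52 bases each with Akr1b7 and Gm15806.
Akr1b8 and Akr1b10: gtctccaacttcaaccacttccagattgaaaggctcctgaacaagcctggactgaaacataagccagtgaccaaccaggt
Cbr1 and Cbr3: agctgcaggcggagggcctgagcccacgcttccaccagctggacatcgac

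Promoters from RefSeq (GRCm38.p6, 250 bases before to 50 after the start) were matched for 7 of the 8 genes, those other than Akr1b1. None of the 7 held TGACNNNGC, the core of the antioxidant response element that NRF2 binds, or TGGAAA, the core shared by NFAT sites, on either strand. Of 32851 mouse promoters of that length 12.4% held the first and 21.4% the second. Elements outside the window were not searched.

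The genes whose pattern over the 6 libraries was nearest to that of Akr1b1 were Aif1l, Ccn1 and Nectin2. The measure was the root mean square difference of log2 CPM, each gene centred on its own mean, over 8754 genes with at least 10 CPM. The difference was 0.056 for Aif1l, an actin-binding protein gene, 0.083 for the matricellular gene Ccn1 and 0.104 for the adhesion gene Nectin2. Their mean levels were 34.0, 24.7 and 6.60 CPM in control and 74.1, 59.2 and 13.8 CPM in mimic libraries. Nearest to Cbr2, among 11043 genes with at least 2 CPM, were Ctxnd1, Cavin3 and Psmb8, at 0.345, 0.383 and 0.389.

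No other aldo-keto reductase passed the test on the higher side. Of 17 listed genes 7 were tested: none rose, 1 fell and 6 did not pass, with a median log2 change of -0.38 against -0.01 over all tested genes (edgeR). The 1 that fell is 14.3% of the list, while over all tested genes 24.3% rose and 24.8% fell. At an unadjusted p under 0.05, 1 (Kcnab3) was higher and 3 were lower, and the DESeq2 Wald test had 0 higher and 1 lower. The one that fell was Kcnab2, a potassium channel beta subunit with the aldo-keto reductase fold, from 126 ± 4.15 to 95.3 ± 1.71 CPM (SD, n = 3 each; adjusted p = 5.36e-13, edgeR). Of the others tested, Akr1c12, Akr1c13, Akr1c14 and Kcnab3 had group means below 2 CPM and log2 changes between -0.69 and 0.44. Scaled by total counts alone, 4 of the 7 fell and 0 rose. Without control replicate 1, control replicate 2 or mimic replicate 2, 2 of the list fell.

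Among 29 tested members of the short-chain dehydrogenase family, to which the carbonyl reductases belong, 4 rose and 7 fell (median log2 change -0.06). These were 13.8% and 24.1%, against 24.3% and 24.8% of all tested genes. Dhrs3, which reduces retinal, fell from 4.37 ± 0.185 to 2.58 ± 0.242 CPM, the largest fall of the list (adjusted p = 1.37e-05, edgeR). The mitochondrial dehydrogenase gene Hsd17b10 and Dhrs7 fell by 0.17 and 0.15 on the log2 scale. Hsdl2, Dhrs7b and the pteridine reductase gene Qdpr rose 1.18-fold, 1.11-fold and 1.08-fold. Dcxr, an L-xylulose reductase, had 3.5 ± 0.331 and 2.73 ± 0.571 CPM and did not pass (adjusted p = 0.0522, edgeR). With total counts only, 1 of the list rose and 13 fell, and without mimic replicate 1, 4 fell.

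Enzymes that oxidise aldehydes and the family of sorbitol dehydrogenase were mostly on the lower side. Of 22 tested medium-chain and aldehyde dehydrogenases 14 fell (63.6%, against 24.8% of all tested genes) and 3 rose (13.6%, against 24.3%). The median log2 change was -0.14. The summed level of the list overlapped between the groups, at 1631 to 1662 CPM in control and 1632 to 1644 CPM in mimic libraries. Over the alternative settings the number that fell ran from 10 (DESeq2 Wald test) to 15 (total counts only), and 3 rose in each. Aldh5a1, succinic semialdehyde dehydrogenase, fell from 23.0 ± 0.839 to 14.3 ± 0.514 CPM (adjusted p = 2.42e-11, edgeR). Aldh3a2, which oxidises fatty aldehydes, fell from 35.8 ± 0.104 to 23.2 ± 1.52 CPM (adjusted p = 4.47e-12, edgeR), and the alcohol dehydrogenase gene Adh7 fell from 71.8 ± 0.763 to 49.9 ± 2.4 CPM. Those that rose were Vat1 (1.28-fold), Adh5, which also clears nitrosoglutathione (1.22-fold), and Aldh9a1 (1.09-fold).

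**Figure D5:**
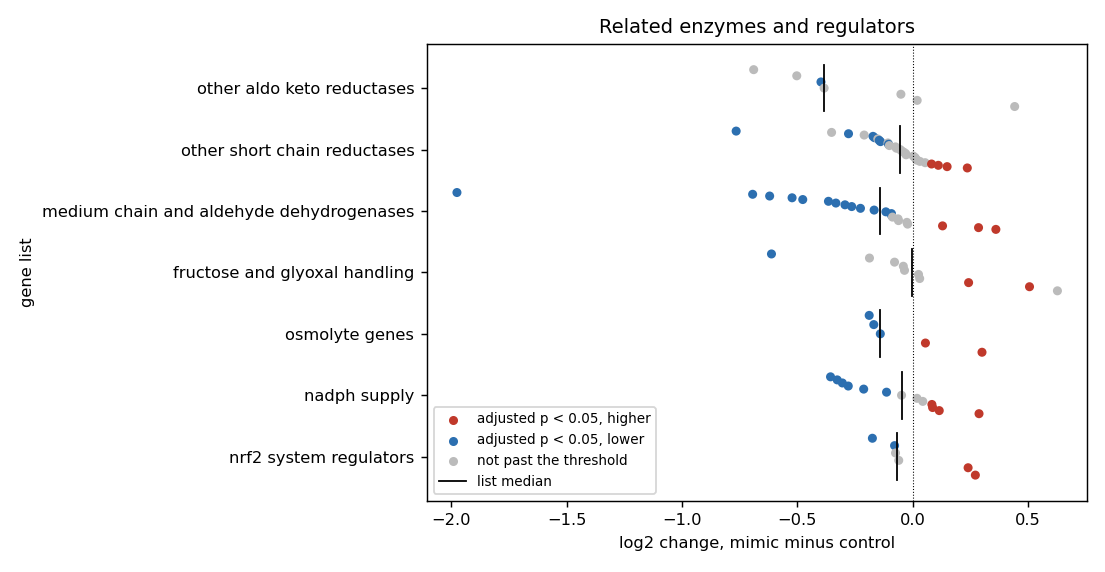
Log2 change, mimic minus control, of each tested gene in 7 lists of related enzymes and regulators, with genes past the adjusted threshold of 0.05 in red (higher) or blue (lower), the rest in grey, and a black line at each list's median. Of 22 medium-chain and aldehyde dehydrogenases 14 are blue and 3 red, while 4 short-chain enzymes are red and 7 blue.

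Most genes on either side of the polyol pathway did not pass, and those that did differed in direction. Of 10 tested genes for fructose use and methylglyoxal removal 2 rose, 1 fell and 7 did not pass. Both the risen and the fallen share were thus below those of all tested genes, 24.3% and 24.8%. When scaled by total counts only, 3 fell. The glucose transporter gene Slc2a1 rose from 137 ± 3.37 to 195 ± 4.7 CPM and the hexokinase gene Hk2 1.18-fold. Khk, the ketohexokinase that phosphorylates fructose made through Sord, fell from 17.0 ± 0.639 to 11.1 ± 0.884 CPM (adjusted p = 1.2e-08, edgeR). Glo1 and Hagh, the glyoxalases that remove methylglyoxal, a substrate of aldose reductase, did not pass, at log2 changes of 0.03 and 0.02.

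The osmolyte genes, with which Akr1b1 shares the factor NFAT5, differed in direction. Of 5 tested genes on this list, Nfat5 itself included, 2 rose and 3 fell. Over all tested genes the shares were 24.3% risen and 24.8% fallen. The taurine transporter gene Slc6a6 rose from 218 ± 4.04 to 268 ± 4.62 CPM (adjusted p = 9.13e-13, edgeR). The myo-inositol transporter gene Slc5a3, Nfat5 itself and the heat shock gene Hspa4l fell by 0.14, 0.17 and 0.19 on the log2 scale. The amino acid transporter gene Slc38a2 rose 1.04-fold, a call that was kept in 6 of the 14 alternative settings. Under total counts only the call was lost, with the sign turned (adjusted p = 0.95, edgeR). The call was also lost without control replicate 1, control replicate 3, mimic replicate 2 or mimic replicate 3. Whether NFAT5 has a part in the Akr1b1 difference was not tested.

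Of 13 tested enzymes that supply NADPH to these reductases, 4 rose and 6 fell. These were 30.8% and 46.2%, against 24.3% and 24.8% of all tested genes. Pgd, a dehydrogenase of the pentose phosphate pathway, rose from 344 ± 10.3 to 419 ± 2.37 CPM (adjusted p = 1.27e-12, edgeR), and the NAD kinase gene Nadk and Mthfd1 rose 1.08-fold and 1.06-fold. The isocitrate dehydrogenase genes Idh1 and Idh2 and the transhydrogenase gene Nnt fell by 0.31, 0.33 and 0.36 on the log2 scale. With total counts only 2 of the list rose, and Mthfd1 did not pass.

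Of the 6 genes of the NRF2 system 2 rose and 2 fell (33.3% each, against 24.3% and 24.8% of all tested genes). Nfe2l2, which encodes NRF2, fell from 125 ± 1.38 to 110 ± 1.67 CPM. The small MAF partners differed in direction, Maff and Mafk rising 1.21-fold and 1.18-fold and Mafg falling by 0.08 on the log2 scale. The call of Mafg was lost without control replicate 2, control replicate 3, mimic replicate 1 or mimic replicate 3. Keap1, the repressor of NRF2, and Bach1, its competitor at antioxidant elements, did not pass, at log2 changes of -0.06 and -0.08.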

How the data were processed

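The 6 libraries were assigned to groups by title. The labels' protocols describe polyadenylated RNA, strand-specific libraries and paired-end sequencing. HISAT2, DESeq2 and GRCm39 appear in the submitters' processing notes, without versions. Counting tool, strand setting and annotation are not named in the sources used here. Deposited by the authors were whole-number read counts (24794 genes) and FPKM values rounded to 2 decimals (24494 genes). Library totals ran from 25376993 to 32963986 counts. Paired libraries of one group differed by more than sampling noise (mean chi-square per gene 1.85 to 2.23), and each counted once.

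The count model was the quasi-likelihood test of edgeR 4.0.16, under R 4.3.3 (filterByExpr, TMM, Benjamini-Hochberg, threshold 0.05, 13779 genes), after a check on simulated data. SE is the log2 change over the square root of F. Ratios, list counts and sequence searches were computed in Python 3.11.15, alignments with Biopython 1.88.

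The members, gene lists and rules were chosen with earlier results of these data known. Named genes are the 8 members, the 3 nearest in pattern to Akr1b1 and to Cbr2, and the tested osmolyte and NRF2 genes. Up to 3 risen and 3 fallen genes per list were named too, those with the smallest adjusted p and a mean of at least 2 CPM. Akr1b10, Akr1b7, Dcxr, Glo1, Hagh, Cd68, Csf1r and the low aldo-keto reductases were named after their values were seen. Of the marker lists, fibroblast genes had 2 risen and 1 fallen of 4 tested, endothelial genes 0 of 1 (also 0 at an unadjusted p under 0.05 and by DESeq2), and epithelial genes 2 risen of 2. Over all tested genes 24.3% rose and 24.8% fell. Alternatives were DESeq2 size factors, total counts, the DESeq2 1.42.0 Wald test, other filters, limma 3.58.1 on log2(FPKM + 1) and log2(FPKM + 0.1), leaving out single libraries, a block for the replicate number, and a threshold of 0.01.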

Additional observations from a re-analysis of the deposited data

How the results depend on the processing

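Every member kept the sign of its change in all 14 settings that gave a value (112 of 112 values), which for the genes whose groups lie apart the choice of members fixed and which is no sign of stability. The ranges were 1.06 to 1.15 for Akr1b1, 0.24 to 0.34 for Akr1b8, -0.20 to -0.11 for Akr1a1, -2.50 to -1.22 for Cbr2 and -0.35 to -0.23 for Cbr3. The value of -1.22 came from limma on log2(FPKM + 1), which understates low genes. With single libraries left out, Cbr2 ran from -2.50 to -1.99. Per length, Akr1b1 was 0.435 times Akr1a1 by FPKM and 1.36 times by the coding transcript in control libraries, and 1.04 and 3.24 times in mimic libraries. Total counts only shifted the median of all genes to -0.06 and gave 2341 risen and 4444 fallen genes in place of 3349 and 3423.

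The members' split of 3 higher and 3 lower became 2 and 4 with total counts only, with limma on either FPKM scale and without control replicate 2. It became 2 and 3 without a filter, with at least 2 CPM in 3 libraries, by the DESeq2 Wald test, without control replicate 1, control replicate 3 or mimic replicate 2, and at a threshold of 0.01.

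Of 270 counts over the settings, 239 were within 1.5 times the value reported. With total counts only, 4 other aldo-keto reductases fell, 1 short-chain gene rose and 13 fell, 3 fructose and glyoxal genes fell, 1 osmolyte gene rose and 2 NADPH genes rose. Without a filter 3 aldo-keto reductases and 1 NRF2 gene fell, and with at least 2 CPM in 3 libraries 1 osmolyte gene rose. The DESeq2 Wald test had 4 short-chain genes and 1 NRF2 gene fallen. Limma on either FPKM scale had 2 short-chain, 1 osmolyte and 2 NADPH genes risen. At a threshold of 0.01, 1 osmolyte gene rose and 1 NRF2 gene fell. With libraries left out in turn, fallen aldo-keto reductases ran from 1 to 2, fallen short-chain genes from 4 to 7, fallen NRF2 genes from 1 to 2 and risen osmolyte genes from 1 to 2. The causes were not tested.

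Libraries of the same replicate number deviated together only weakly (correlations 0.02 to 0.07), though each correlated best with its own number, as a hint from the data. With the replicate number as a block 3403 genes rose and 3484 fell, 3 members were higher and 3 lower, and no count moved by over 1.5 times. The counts of Cbr2, 15 to 33 in mimic libraries, limit its precision.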
